A study of Drosophila melanogaster with 7 samples.

Results

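Heat shock proteins and molecular chaperones were followed in Drosophila melanogaster eye imaginal discs, the larval epithelia that form the compound eye. The genes were chosen by symbol: Hsp, Hsc70, CCT, DnaJ and Pfdn names, together with Cdc37, Hop, Gp93, Trap1 and Droj2. Of 44 genes whose current symbol matched, 29 had a value on at least 1 array, out of 5973 genes with a value. Another 9 had a probe with no value on any array (DnaJ-60, Hsc70-1, Hsc70-2, Hsp60B, Hsp60C, Hsp60D, Hsp70Ab, Hsp70Bb and Hsp70Bbb), and 6 had no probe named to them (Hsp22, Hsp23, Hsp67Ba, Hsp67Bc, Hsp70Aa and Hsp83). Hop is now called Stip1, so the symbol rule did not find it, and Stip1 is described beside the Hsp90 system.

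Both mutants concern sevenless (sev), a receptor tyrosine kinase through which photoreceptor precursors are recruited to become R7 cells. The first, sevS11, is known as an activated form of the receptor and had 3 arrays. They were a dye-swapped pair of extraction 1 and a single array of extraction 2 with the mutant in Cy5. The second, sevd2;+;+, is a known loss-of-function allele with 4 arrays, a dye-swapped pair from each of 2 extractions. Every array set mutant RNA against 1 pool from the isogenic wild-type strain w1118;+;+. All discs came from larvae of the third instar staged with bromophenol blue, in a w1118 genetic background, raised at 25 °C with no treatment, so no heat shock was applied. The labels do not give the promoter that drives sevS11 or the number of larvae behind an extraction.

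Chaperones bind unfolded or partly folded proteins and keep them from aggregating. Small heat shock proteins hold such clients, Hsp70 proteins bind and release them with the help of J-domain proteins, and the Hsp90 system finishes signalling proteins such as kinases. Prefoldin hands new actin and tubulin to the cytosolic chaperonin, a ring built from CCT subunits, while Hsp60 forms the chaperonin of mitochondria. Hsp83, the fly Hsp90, and its kinase co-chaperone Cdc37 are known from genetic screens to support Sevenless signalling in the developing eye.

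All values below are log2 ratios, likely of mutant over reference. The base and direction are not stated by the authors. The direction rests on sev itself, whose extraction values were 1.85 and 4.43 in sevS11 and -0.32 and -0.41 in sevd2. Arrays had values for 5194 to 7009 probes in sevS11 and 4701 to 5691 in sevd2, and their number limits the precision. The single array of sevS11 extraction 2 correlated with the other sevS11 arrays at 0.633 and 0.688 over probes and with the sevd2 arrays at 0.486 to 0.653, and all of these arrays share the reference pool. The labels disagree on that pool. The description field calls it wing disc RNA, and the source names and the extraction protocol call it eye disc RNA. Of 17 eye disc markers 15 had a value and 11 were tested, with ratios of -0.46 to 0.51 in sevS11 and -0.27 to 0.32 in sevd2. Of 14 wing disc markers 10 had a value and 5 were tested, with ratios of -0.27 to 0.095 in sevS11 and -0.15 to 0.14 in sevd2, and the wing genes vg, nub, rn and pdm2 had no value. The wing list's mirr was not tested and had the highest values of that list, 1.40 in sevS11 extraction 1 and 1.70 in sevd2 extraction 1. It had no value in extraction 2 of either genotype. Of 13 hemocyte markers 13 had a value and 8 were tested, with a median ratio of 0.22 in sevS11 and -0.62 in sevd2. In sevS11 PPO1, PPO2 and He rose (3 of 8, against 5.77% of all genes) and the other 5 lay between -0.25 and 0.37. In sevd2 0 of 8 passed, while 5 of 8 had an unadjusted limma p under 0.05, against 9.79% of all genes. Between the genotypes PPO1 and PPO2 were higher in sevS11, by 2.10 and 2.72 (limma, adjusted p = 0.0429 and 0.018). They were 2 of 8, against 0.0558% of all genes. The part of the hemocyte markers in the chaperone ratios was not tested.

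None of the 27 tested chaperone genes passed in any of the 3 comparisons (limma, Benjamini-Hochberg adjusted p under 0.05 over 3587 genes). In sevS11 against the reference 0 members rose and 0 fell, against a background of 5.77% of all genes. In sevd2 against the reference 0 rose and 0 fell, against 0.0836%, and in sevS11 against sevd2 0 rose and 0 fell, against 0.0558%. At an unadjusted limma p under 0.05 there were 5 members in sevS11 (Pfdn2 higher and CCT5, Hsc70-5, Hsp70Ba and Pfdn4 lower), against 25.4% of all genes. There were 2 in sevd2 (CCT3 and Hsp60A, both lower), against 9.79% of all genes, and 1 between the genotypes (CCT3, higher in sevS11), against 12.8%. The median ratio over the members was -0.12 in sevS11 and -0.074 in sevd2, and over all genes it was -0.0037 in sevS11 and 0.010 in sevd2. Each fitted ratio below is a mean of n = 2 extractions followed by its standard error (SE) from limma. The labels call the extractions biological replicates without naming separate animals, so p-values measure only how extractions spread, and that spread may be technical. Variation among wild-type samples does not enter the tests, since there was 1 reference pool.

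**Figure D1:**
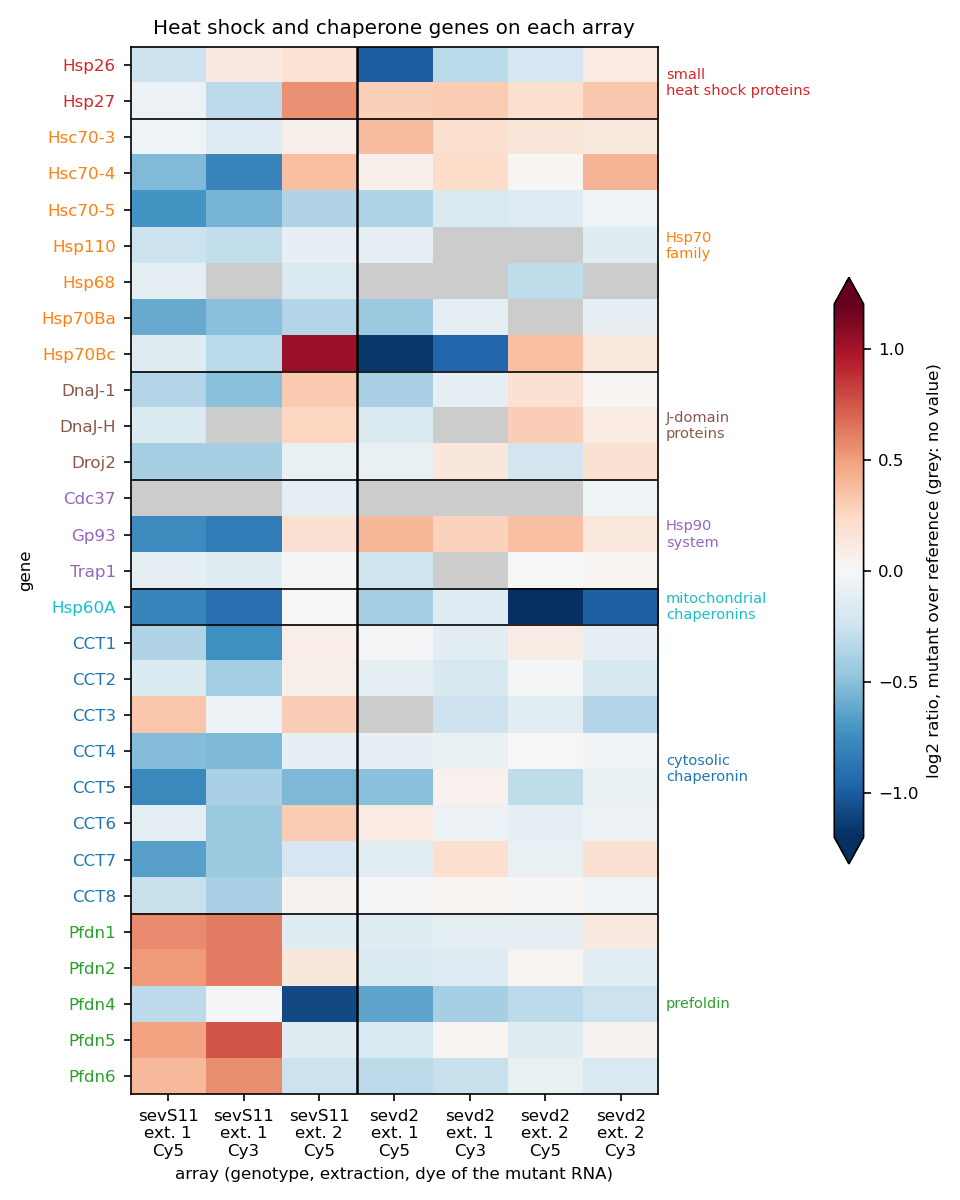
Log2 ratio of mutant over reference (colour) for the 29 genes with a value (rows, grouped by class) on each of the 7 arrays (columns), with sevS11 left of sevd2 and grey where an array gave no value. On the pair of sevS11 extraction 1 most rows are blue and 4 prefoldin rows are red, while the third sevS11 array and the sevd2 arrays show no such split.

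Many chaperone genes differed between the 2 sevS11 extractions. In sevS11 extraction 1, 22 of 27 chaperone genes lay below the reference, with a median of -0.28, while 45.9% of all genes lay above it. In sevS11 extraction 2, 14 of 27 lay above the reference, with a median of 0.011. The 22 genes that were higher in extraction 2 than in extraction 1 were all those outside prefoldin. The 5 that were lower were the 5 prefoldin genes, and 51.9% of all genes were higher in extraction 2. CCT3 was higher by only 0.0076, and its side depended on the dye correction. With the dye effect of the sevS11 pair alone its fitted ratio was 0.114, under its extraction 1 value of 0.13, so extraction 2 was then the lower. The median absolute gap between the sevS11 extractions was 0.46 over the members and 0.26 over all genes. Between the sevd2 extractions it was 0.10 over the members and 0.089 over all genes. Within the swapped pair of sevS11 extraction 1 the arrays differed by a median of 0.16 over the members, and over all genes by 0.12, both less than the gap between the sevS11 extractions. In sevd2 the order was the other way, with swapped arrays differing by 0.18 and 0.19 over the members. Over all genes the sevd2 order was the same, at 0.14 and 0.13. A swapped difference is between single arrays and holds the dye effect, while the sevd2 extraction gap is mostly between pair means.

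The cytosolic chaperonin, whose ring folds actin and tubulin, had a value for all 8 subunits. In sevS11 extraction 1 the median over CCT1 to CCT8 was -0.43, with 7 of 8 below the reference, and in sevS11 extraction 2 it was -0.026. That last value is below 0 only after the dye correction. On the uncorrected array the median was 0.054, with 5 of 8 above the reference, among them CCT1 and CCT2. In sevd2 the class median was -0.078 in extraction 1 and -0.054 in extraction 2, and no subunit lay farther than 0.25 from the reference in either extraction. CCT1, CCT4 and CCT7 had nearly the same ratio in sevS11 extraction 1, at -0.55, -0.53 and -0.54, and lay at -0.040, -0.10 and -0.073 in extraction 2. CCT2 and CCT8 were at -0.29 and -0.33 in extraction 1 and at -0.013 and 0.018 in extraction 2. CCT6 changed side, with -0.28 in extraction 1 and 0.23 in extraction 2. Subunits of this complex therefore shared a direction within extraction 1, apart from CCT3.

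CCT5 had ratios of -0.78 and -0.39 on the pair of sevS11 extraction 1 and -0.54 on the array of extraction 2, against -0.50, 0.048, -0.31 and -0.075 on the sevd2 arrays. The groups overlapped, and in both genotypes the arrays with the mutant in Cy5 were the lower ones, with a dye effect of -0.19. The fitted ratio was -0.46 ± 0.10 in sevS11 (limma, adjusted p = 0.0669), the lowest adjusted p of any member, and -0.21 ± 0.10 in sevd2 (limma, adjusted p = 0.609). CCT3 had 0.34, -0.070 and 0.30 on the sevS11 arrays and -0.25, -0.12 and -0.35 on the 3 sevd2 arrays with a value. All sevS11 values lay above all sevd2 values. The extraction values were 0.13 and 0.14 in sevS11 and -0.25 and -0.24 in sevd2, but the second sevS11 value stands at 0.14 only after a dye effect of 0.16 was subtracted. The difference of 0.38 ± 0.13 between the genotypes did not pass (limma, adjusted p = 0.323), and the sevd2 value of extraction 1 came from 1 array with the mutant in Cy3 and was not corrected for dye.

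Prefoldin, the co-chaperone that delivers actin and tubulin to the CCT ring, had a value for all 5 subunits found by symbol. In sevS11 extraction 1 Pfdn1, Pfdn2, Pfdn5 and Pfdn6 lay above the reference, at 0.59, 0.56, 0.62 and 0.47. In sevS11 extraction 2 they lay at -0.094, 0.13, -0.032 and -0.24. On a linear scale the extraction 1 ratios were 1.51, 1.48, 1.53 and 1.39, while CCT1, CCT4, CCT5 and CCT7 stood at 0.685, 0.692, 0.669 and 0.686 in the same RNA. In that extraction 7 of 8 chaperonin genes and 4 of 5 prefoldin genes lay on opposite sides of the reference, and in extraction 2 the class medians were -0.026 and -0.094. Before the dye correction the extraction 2 array gave class medians of 0.054 and -0.14. In sevd2 all 5 prefoldin genes were below the reference in both extractions, with medians of -0.16 and -0.053. The remaining subunit, encoded by mgr, is not found by the symbol rule. It gave 0.455 and 0.455 on the pair of sevS11 extraction 1 and -0.062 on the extraction 2 array, against -0.066, -0.063, 0.049 and 0.044 on the sevd2 arrays. It was high on the same 2 arrays as the other 4, and its fitted ratio was 0.20 ± 0.14 in sevS11 (limma, adjusted p = 0.423).

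Pfdn2 had 0.51 and 0.61 on the pair of sevS11 extraction 1 and 0.14 on the extraction 2 array, against -0.17, -0.15, 0.034 and -0.13 on the sevd2 arrays. All sevS11 values lay above all sevd2 values. The fitted ratio was 0.35 ± 0.13 in sevS11 (limma, adjusted p = 0.173), and the difference from sevd2 was 0.45 ± 0.18 (limma, adjusted p = 0.393). Pfdn4 went its own way, with -0.31 and -0.011 on the pair of sevS11 extraction 1 and -1.08 on the extraction 2 array, against -0.63, -0.40, -0.32 and -0.26 on the sevd2 arrays. All 7 arrays were below the reference and the genotypes overlapped. Its fitted ratios were -0.57 ± 0.20 in sevS11 (limma, adjusted p = 0.152) and -0.40 ± 0.20 in sevd2 (limma, adjusted p = 0.607). Pfdn5 and CCT1 are near neighbours on chromosome arm 3R, with 1 gene, CG5376, between them in the Release 6 annotation, yet they stood at 0.62 and -0.55 in sevS11 extraction 1.

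**Figure D2:**
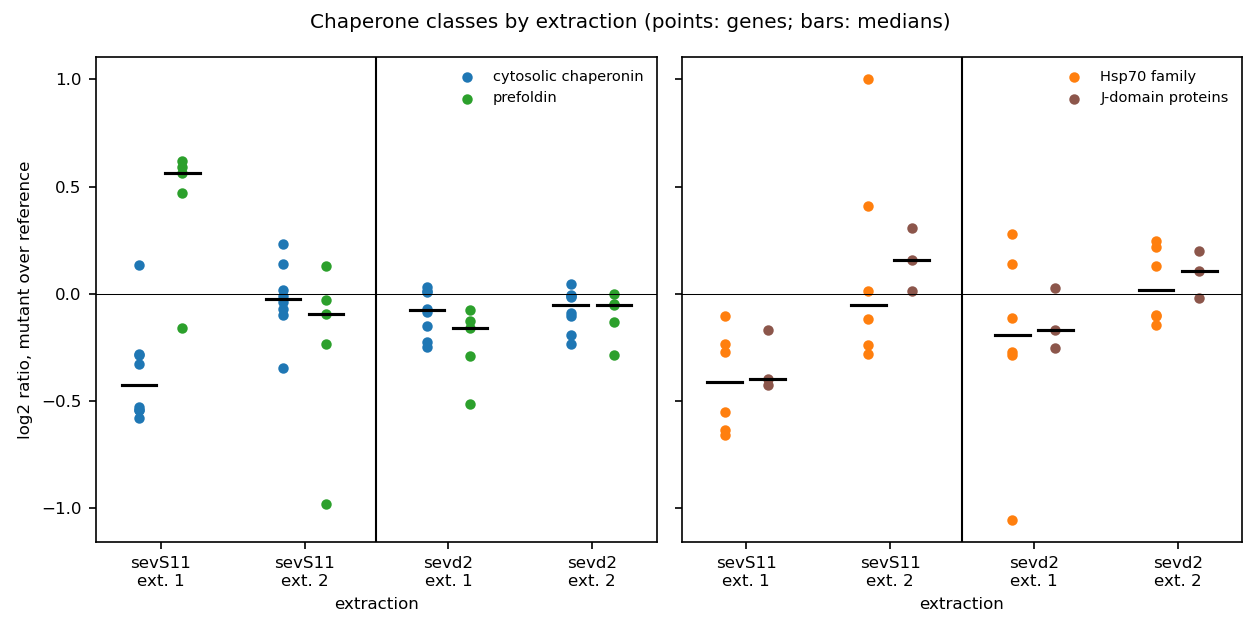
Log2 ratio of each tested gene (points) and the class median (bars) in each extraction, with sevS11 left of sevd2, for the cytosolic chaperonin and prefoldin (left panel) and for the Hsp70 family and J-domain proteins (right panel). The chaperonin and prefoldin medians are -0.43 and 0.56 in sevS11 extraction 1, and -0.026 and -0.094 in extraction 2 after the dye correction.

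The Hsp70 family had 7 of 13 genes with a value, of which 6 were tested. In sevS11 extraction 1 all 6 lay below the reference, with a median of -0.41, and in extraction 2 there were 3 above and 3 below, with a median of -0.054. The sevd2 medians were -0.19 in extraction 1 and 0.015 in extraction 2. Hsc70-5 is the mitochondrial Hsp70, a constitutive member. It had -0.72 and -0.56 on the pair of sevS11 extraction 1 and -0.36 on the extraction 2 array, against -0.37, -0.18, -0.16 and -0.055 on the sevd2 arrays. Every array was below the reference, and the genotypes overlapped narrowly. Its fitted ratios were -0.46 ± 0.12 in sevS11 (limma, adjusted p = 0.0945) and -0.19 ± 0.12 in sevd2 (limma, adjusted p = 0.703).

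Hsc70-3 is the fly BiP, the Hsp70 of the endoplasmic reticulum. It had -0.054, -0.16 and 0.063 on the sevS11 arrays, against 0.37, 0.19, 0.14 and 0.12 on the sevd2 arrays. All sevS11 values lay below all sevd2 values, and the difference of -0.25 ± 0.14 did not pass (limma, adjusted p = 0.492). Hsc70-4, the main cytosolic Hsp70, had extraction values of -0.66 and 0.41 in sevS11 and 0.14 and 0.22 in sevd2. Its sevS11 extractions lay on opposite sides of the reference, and only 1.06% of genes had a larger gap between them. Hsp110, a nucleotide exchange factor for Hsp70, had -0.27 and -0.12 in sevS11 and -0.11 and -0.14 in sevd2.

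The inducible Hsp70 genes are near-identical copies, so a probe may read several of them and the gene assignments are uncertain. Hsp70Bc was represented by 17 probes, which agreed within an array with a standard deviation of 0.023 to 0.094. Probe sequences were not at hand, so it is unknown whether the 17 probes are repeats of 1 sequence. Their mean was -0.15 and -0.32 on the pair of sevS11 extraction 1 and 1.04 on the extraction 2 array, against -1.16 and -0.96 on the pair of sevd2 extraction 1 and 0.36 and 0.13 on the pair of extraction 2. In both genotypes extraction 2 was the higher one, by 1.24 in sevS11 and 1.30 in sevd2, and 0.362% and 0.0558% of genes had a larger gap in those genotypes. The fitted ratios, 0.38 ± 0.38 in sevS11 and -0.40 ± 0.38 in sevd2, were the size of their errors (limma, adjusted p = 0.556 and 0.827). The single Hsp70Ba probe gave another picture, with -0.60, -0.50 and -0.35 on the sevS11 arrays and -0.45, -0.12 and -0.099 on the 3 sevd2 arrays with a value. It was below the reference on every array, with a fitted ratio of -0.40 ± 0.12 in sevS11 (limma, adjusted p = 0.115). A probe listed for both Hsp70Aa and Hsp70Ab had 1 value, 2.60, on the array of sevS11 extraction 2, where Hsp70Bc was also highest. Hsp68, another inducible Hsp70, was not tested and had -0.12 and -0.18 on 2 sevS11 arrays and -0.31 on 1 sevd2 array.

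**Figure D3:**
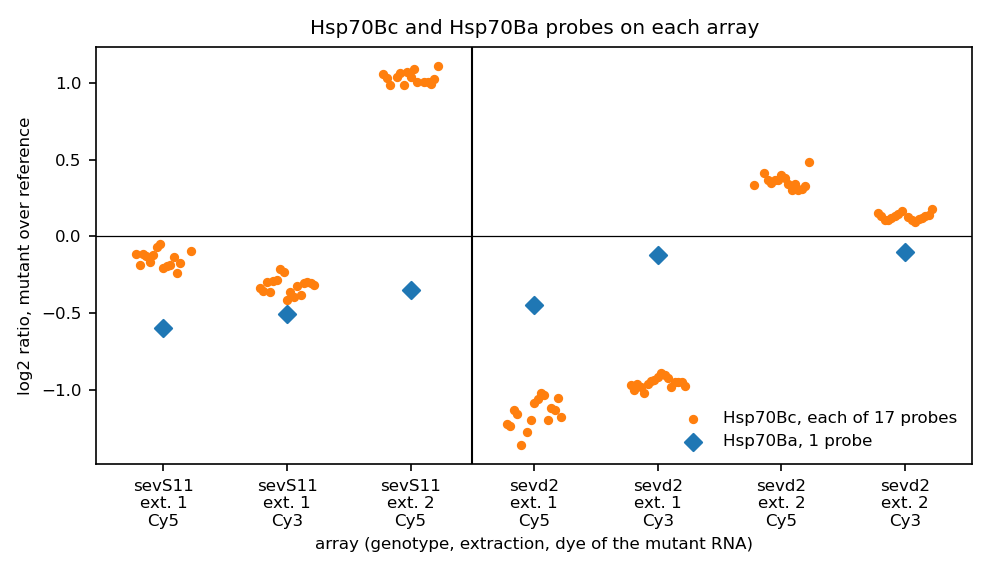
Log2 ratio of mutant over reference for each of the 17 Hsp70Bc probes (circles, spread sideways for visibility) and the Hsp70Ba probe (diamonds) on each array, with sevS11 left of sevd2. The Hsp70Bc probes stay together within an array, with means between -1.16 and 1.04 across arrays.

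The J-domain proteins, which deliver clients to Hsp70, had 3 of 4 genes with a value. All 3 were below the reference in sevS11 extraction 1 (median -0.40) and above it in extraction 2 (median 0.16), Droj2 only after the dye correction (0.012, against -0.092 on the array). DnaJ-1, the fly Hsp40, had -0.35, -0.50 and 0.31 on the sevS11 arrays, against -0.39, -0.11, 0.18 and 0.026 on the sevd2 arrays. In both genotypes extraction 1 was low and extraction 2 was above the reference, as with Hsp70Bc, and the genotypes overlapped. The extraction gaps correlated between the genotypes at -0.032 over the 27 tested members and at 0.0245 over the 22 outside prefoldin. Both values include Hsp60A, whose large gaps had opposite signs, 1.08 in sevS11 and -1.34 in sevd2. Extraction 2 was the higher one for 22 of 27 members in sevS11 and 19 of 27 in sevd2. Whether the likeness was general is therefore not settled by these correlations. Droj2 had -0.395, -0.40 and -0.092 on the sevS11 arrays, against -0.089, 0.14, -0.22 and 0.18 on the sevd2 arrays, and its difference of -0.19 ± 0.18 did not pass (limma, adjusted p = 0.637). DnaJ-H had extraction values of -0.17 and 0.16 in sevS11 and -0.17 and 0.20 in sevd2. Each sevS11 value came from 1 array with the mutant in Cy5. Only the second was corrected for dye, from 0.26 on the array.

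The small heat shock proteins, which hold unfolded clients without ATP, had 2 of 6 genes with a value. Hsp26 had -0.25, 0.11 and 0.17 on the sevS11 arrays, against -0.99, -0.32, -0.20 and 0.096 on the sevd2 arrays. The genotypes overlapped, and the extractions differed by 0.46 in sevS11 and 0.60 in sevd2, with extraction 2 higher in both. The difference of 0.51 ± 0.26 did not pass (limma, adjusted p = 0.462). Hsp27 had -0.071 and -0.32 on the pair of sevS11 extraction 1 and 0.55 on the extraction 2 array, against 0.29, 0.31, 0.19 and 0.32 on the sevd2 arrays. The sevd2 arrays were close to each other and above the reference, and the sevS11 arrays spanned them. In sevd2, 19 of 27 members and 50.8% of all genes were higher in extraction 2.

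The Hsp90 system was the least covered. Hsp83 had no probe named to it and is not analysed here. Cdc37 had 2 values, -0.11 on the array of sevS11 extraction 2 and -0.054 on a sevd2 array of extraction 2, which is too few for a test. Stip1, which bridges Hsp70 and Hsp90, had -0.37, -0.057 and -0.22 on the sevS11 arrays, against -0.17, 0.20, -0.12 and 0.0085 on the sevd2 arrays. The groups overlapped, and the fitted ratios were -0.15 ± 0.096 in sevS11 and -0.020 ± 0.096 in sevd2 (limma, adjusted p = 0.37 and 0.974). Gp93, the Hsp90 of the endoplasmic reticulum, had -0.76 and -0.83 on the pair of sevS11 extraction 1 and 0.18 on the extraction 2 array, against 0.40, 0.28, 0.36 and 0.13 on the sevd2 arrays. The sevd2 arrays were all above the reference, and the sevS11 pair lay far below them while the third array lay among them. Its ratios were -0.34 ± 0.21 in sevS11 and 0.29 ± 0.21 in sevd2, and the difference of -0.64 ± 0.30 did not pass (limma, adjusted p = 0.43). Trap1, the mitochondrial Hsp90, lay at -0.13 and -0.022 in the sevS11 extractions and -0.24 and 0.017 in those of sevd2.

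Of the mitochondrial chaperonins only Hsp60A had a value, from 1 of its 18 probes. It had -0.80 and -0.89 on the pair of sevS11 extraction 1 and -0.0025 on the extraction 2 array, against -0.40, -0.15, -2.25 and -0.98 on the sevd2 arrays. All 7 values were below 0, with the lowest on the pair of sevd2 extraction 2. After the dye effect of -0.24 was subtracted, sevS11 extraction 2 lay at 0.23. That effect is a mean over pairs that include the discordant pair of sevd2 extraction 2. With the dye effect of the sevS11 pair alone, the fitted sevS11 ratio was -0.45 in place of -0.31. The arrays of that sevd2 pair differed by more than any fitted ratio of a member, and the sevd2 ratio of -0.95 ± 0.37 did not pass (limma, adjusted p = 0.499). Only 0.0279% of genes had a larger gap between the sevd2 extractions.

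**Figure D4:**
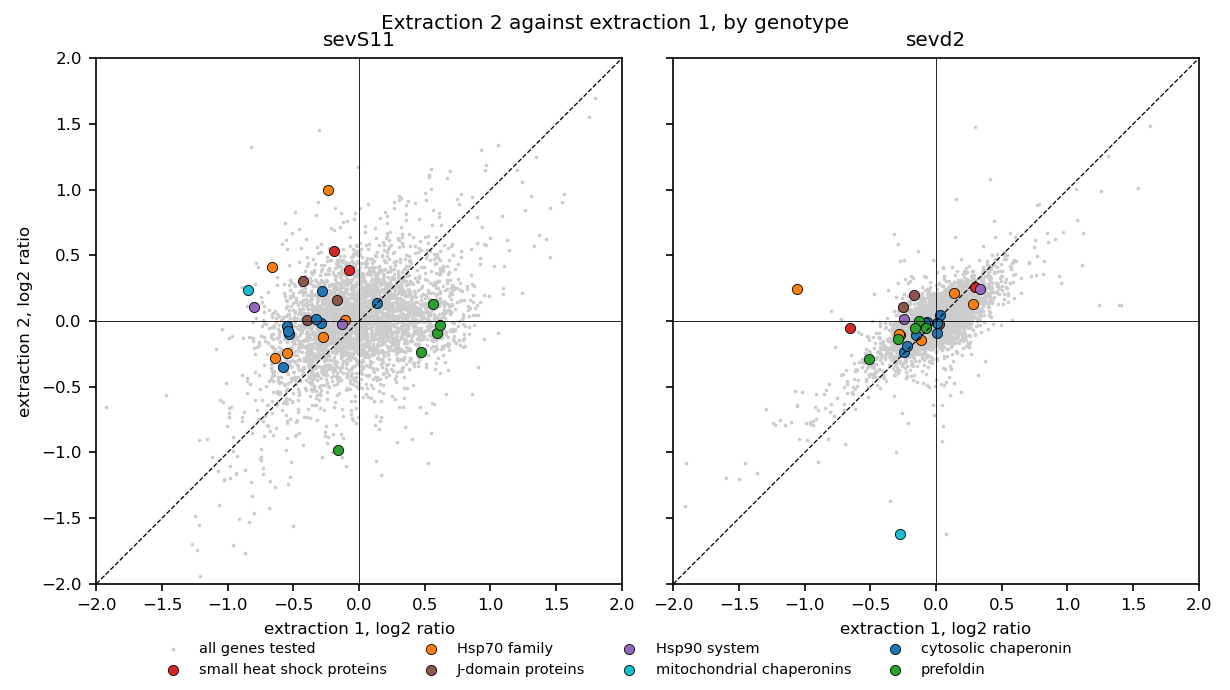
Log2 ratio in extraction 2 (vertical) against extraction 1 (horizontal) for all tested genes (grey) and the 27 chaperone genes (coloured by class), with sevS11 in the left panel and sevd2 in the right panel; the dashed line marks equal values, and 9 genes in sevS11 and 1 in sevd2 lie outside the axes. In sevS11 every chaperone gene outside prefoldin lies above the dashed line and every prefoldin gene below it. CCT3 is above the line by only 0.0076, and this depends on the dye correction.

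Each sevS11 extraction was also fitted alone with sevd2, so that the lone extraction was assumed to vary like those of sevd2. Without sevS11 extraction 2, 18 of 27 members passed in sevS11 (limma, adjusted p under 0.05), against 46.9% of all genes. Pfdn1, Pfdn2, Pfdn5 and Pfdn6 were the 4 higher ones, and the 14 lower ones held 7 CCT subunits, 4 Hsp70 family genes, DnaJ-1, Droj2 and Gp93. In that fit 4 members passed in sevd2 (Gp93 and Hsp27 higher, CCT3 and Pfdn4 lower), against 14.5% of all genes, and 16 passed in sevS11 against sevd2 (5 higher and 11 lower), against 40.8%. Without sevS11 extraction 1, 4 members passed in sevS11 (Hsc70-4 and Hsp27 higher, CCT5 and Pfdn4 lower), against 24.7% of all genes. The same 4 members as before passed in sevd2, against 12%, and between the genotypes Pfdn4 alone passed, lower in sevS11 than in sevd2, with a background of 9.33%. These fits assumed a smaller spread than sevS11 showed, as the median gap over all genes was 0.26 between its extractions and 0.089 between those of sevd2. The number of calls rested on that spread as well as on which sevS11 extraction was used. In sevd2, whose own ratios were unchanged, the share of all genes called had been 0.0836% in the main fit. CCT5 lay at -0.58 and -0.35 in the sevS11 extractions, and Hsc70-4 at -0.66 and 0.41.

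**Figure D5:**
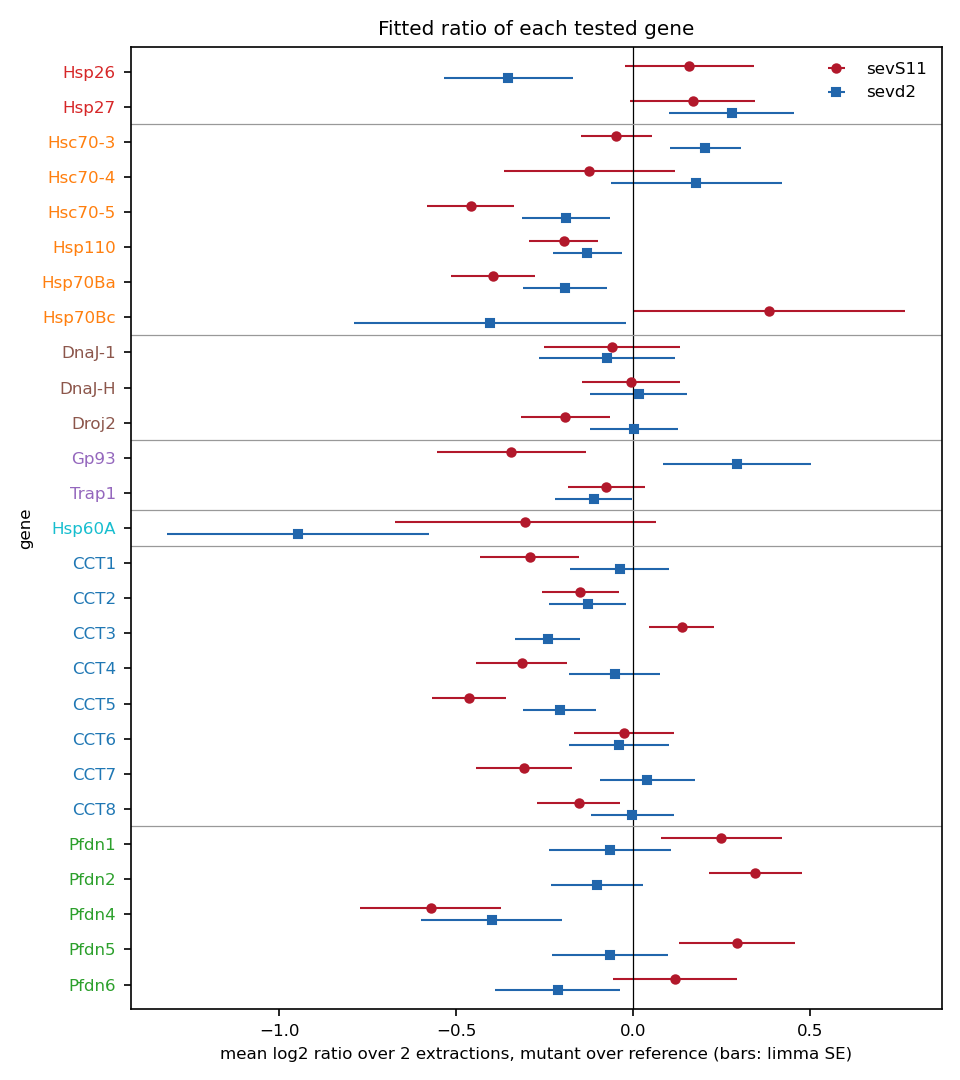
Fitted log2 ratio of mutant over reference for each tested gene (rows, grouped by class), as the mean of 2 extractions with limma standard errors (bars); circles are sevS11 and squares below them are sevd2. CCT5 and Hsc70-5 in sevS11, at -0.46 each, have short bars, while Hsp70Bc and Hsp60A have the longest bars.

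Other genes of protein folding were read from lists that go beyond the symbol rule. Among regulators of the heat shock response and co-chaperones, 22 of 43 were tested, and 2 rose and 1 fell in sevS11, where 5.77% of all genes passed. Roe1, the mitochondrial GrpE exchange factor, rose by 0.82 ± 0.15 (limma, adjusted p = 0.041), with 0.53 and 1.11 in the sevS11 extractions and 0.39 and 0.44 in those of sevd2. Sec63, a J-domain protein of the endoplasmic reticulum translocon, fell by 0.81 on the log2 scale (limma, adjusted p = 0.0197), with -0.89 and -0.73 in the sevS11 extractions. The other gene that rose, tsl, encodes torso-like, which is not a chaperone (0.70 ± 0.11, limma, adjusted p = 0.0323). None of this list passed in sevd2 or between the genotypes, where the lowest p belonged to Roe1 (0.41 ± 0.15 in sevd2, limma, adjusted p = 0.455) and tsl (limma, adjusted p = 0.182). Hsf, the transcription factor of the heat shock response, had -0.31 and -0.35 in the sevS11 extractions and 0.010 and -0.041 in those of sevd2, and did not pass in sevS11 (limma, adjusted p = 0.105).

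Of the endoplasmic reticulum chaperones and unfolded protein response genes, 13 of 22 were tested and 0 passed in any comparison. Their median ratio was -0.11 in sevS11 and 0.13 in sevd2. Pdi, a protein disulfide isomerase, had -1.09 and -0.21 in the sevS11 extractions and 0.27 and 0.12 in those of sevd2 (limma, adjusted p = 0.129 in sevS11). Edem1 had the lowest p in sevd2 (0.20, limma, adjusted p = 0.603) and prtp between the genotypes (-0.45, limma, adjusted p = 0.279). Pdi was therefore like Gp93 in being low in sevS11 extraction 1 and above the reference in sevd2. In sevS11 extraction 2 they differed, as Pdi stayed below the reference and Gp93 lay at 0.11. Of the cellular stress genes 9 of 17 were tested, with a median ratio of -0.32 in sevS11 and 0.085 in sevd2. Against that median 1 rose in sevS11, the metal-binding metallothionein MtnA (1.63 ± 0.29, limma, adjusted p = 0.038, against 5.77% of all genes). MtnA had 2.27 and 0.99 in the sevS11 extractions and -0.49 and -0.28 in those of sevd2. MtnA also had the lowest p between the genotypes (limma, adjusted p = 0.171), and Ubi-p5E the lowest in sevd2 (0.18, limma, adjusted p = 0.693). Of the Sevenless pathway clients and partners of Hsp90, 3 of 11 were tested. Of these sev passed in sevS11 (3.14 ± 0.54, limma, adjusted p = 0.0367), and its direction is no result, since the direction of all ratios was taken from it, while Egfr, at 0.11, and cnk, at 0.30, did not pass there.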

How the data were processed

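RNA of 7 arrays was amplified and labelled with Cy3 or Cy5, per the labels' protocols. The deposited values are the authors' normalised probe ratios, read here as log2. The submitters' processing notes name limma; its version, the background correction, filter, log base and sign are not given in the sources used. The swapped arrays correlated at 0.777 to 0.939, so the ratios were already turned to 1 direction.

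Of the probes, 12533 were named by gene identifier and 120 by accession through the Release 6 plus ISO1 MT table, 511 kept their older symbol, and 3151 were not listed; the 101 probes listed for several genes stayed unnamed. Values were averaged first over probes (246 genes had several) and then over the arrays of an extraction. Each gene's dye effect, the deviation of the Cy5 array from its pair's mean averaged over swapped pairs, was subtracted from the unswapped sevS11 array, except for 147 tested genes with no complete pair. No other value was corrected, neither array values in the text nor extractions with 1 array left of a pair. The 22 members with a value on all 7 arrays had complete pairs; the other 5 tested members had an extraction with 1 array. The 4 extractions of 3587 genes entered 1 limma model (version 3.58.1, R 4.3.3; genotype means, eBayes, prior degrees of freedom 3.8, residual 2), and the fit was tested on simulated data.

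Members, classes and lists were chosen with earlier results of these data known. Values on every array are given for the member with the lowest unadjusted p in each class and comparison, the highest and lowest ratios, the largest gaps and Cdc37 (the rule also held Hsp83, which has no probe); other members are named with extraction values, and Hsp70Ba, Hsp68, Stip1, mgr and Hsf were added after their values were seen. The fit was repeated without dye correction, on arrays, on each genotype's own extractions, after centring, scaling or quantile normalisation, robustly, on genes complete on all arrays, per probe, at a looser threshold, with extraction number as a block, and leaving out each array and extraction. No sequences are shown.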

Additional observations from a re-analysis of the deposited data

Results flagged for a closer look

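One result stood out by the distance of a single array from the others of its group, among 22 groups of 4 arrays that were checked; chance marks about 1 in 20 such groups. Pfdn1 lay at 0.11 on the Cy3 array of sevd2 extraction 2, apart from -0.14, -0.12 and -0.11 on the other sevd2 arrays. The 4 arrays come from 2 extractions and are not independent.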

How the results depend on the processing

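The count of chaperone genes called in sevS11 against the reference was 0. It was 1 with no dye correction (CCT5), against 162 of 3587 genes, and 2 in the array-level fit (CCT5 and Hsc70-5), against 389 of 3540. It was 2 at an adjusted p under 0.1, against 408 of 3587 genes, and 1 with each probe tested by itself, against 625 of 4825 probes. Leaving out an array or an extraction gave 0 to 18. In sevd2 the count of 0 became 4 with the genotype's own extractions only (CCT3, Gp93, Hsp27 and Pfdn4), and leaving out gave 0 to 4. For sevS11 against sevd2 leaving out gave 0 to 16, and the genotype's own extractions could not be used. With extraction number as a replicate block the counts were 3, 1 and 1 (CCT5, Hsc70-5 and Pfdn4 in sevS11, Hsp60A in sevd2, Hsp70Bc between them). Over all genes 383, 92 and 86 of 3587 passed with that block, and 485 of 3925 passed in sevd2 with its own extractions. Extraction numbers pair nothing in the labels, and the gaps between extractions correlated at -0.065 between the genotypes over genes and at -0.032 over the members. Without sevd2 extraction 2, the sevd2 ratio of Hsp70Bc was that of extraction 1 alone, -1.06, where extraction 2 lay at 0.25. Hsc70-4 in sevS11, at -0.12, ranged from -0.66 (without sevS11 replicate 3) to 0.50 (reversed, without sevS11 extraction 1), as the extractions lie on opposite sides of the reference. The member medians stayed below 0 in sevS11 and sevd2, except 0.011 in sevS11 without sevS11 extraction 1. The median of sevS11 minus sevd2 was 0.018 after scaling and 0.040 without sevS11 extraction 1, against -0.068.

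The number of all genes called moved by over 1.5 times from 207 in sevS11, to 107 (scaling), 132 (genes on all arrays), 389 (array-level), 383 (block), 408 (threshold), 625 (probes) and 58 to 1748 (leaving out). In sevd2 it moved from 3 to 0 (no dye correction), 5 (dye effect of the sevS11 pair), 38 (array-level), 485 (own extractions), 179 (scaling), 145 (quantile), 13 (all arrays), 92 (block), 33 (threshold), 218 (probes) and 0 to 540 (leaving out). Between the genotypes it moved from 2 to 1 (no dye correction, dye effect of the sevS11 pair, robust fit and probes), 38 (array-level), 29 (scaling), 25 (quantile), 0 (all arrays), 86 (block), 24 (threshold) and 1 to 1521 (leaving out). These counts have different numbers tested behind them. In sevS11, 132 of 2261 genes with values on all arrays is a share close to the 207 of 3587, and the 625 are out of 4825 probes. Causes were not tested.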
